A study of Mus musculus with 6 samples.

Results

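Genes of glucose uptake, glycolysis, lactate and pyruvate handling and glycogen turnover were examined in cultured mouse astrocytes with floxed Chd7 after delivery of Cre recombinase. Chd7 encodes an ATP-dependent chromatin remodeller. The set was defined by name: 38 genes, read through every array probe that the platform annotation gives one of these symbols and that had a value on at least 3 of the 6 arrays in the authors' table. Of the 38 genes, 36 had a probe, with 38 probes among the 23473 on the array, and all 38 probes were kept. Gpi1 and Eno1 had no probe under these symbols and were not analysed here. Astrocytes came from the cortex of C57BL/6J pups at postnatal day 0 and carried floxed Chd7 alleles in both groups. The Cre group (3 arrays) received a lentivirus with Cre recombinase, which cuts out the floxed part of the gene, and the control group (3 arrays) received a control lentivirus. The medium of both groups held FGF2, EGF, B-27 and 10% fetal bovine serum, and RNA was taken 3 days after infection. Cre was present in 1 group only, so what Cre itself does and what Chd7 loss does cannot be told apart.

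Astrocytes take up glucose through facilitative transporters, trap it by phosphorylation and break it down to pyruvate in the cytosol. Much of that pyruvate is reduced to lactate, which leaves the cell through monocarboxylate transporters and can be used by neurons. Astrocytes also hold most of the glycogen of the brain, and phosphorylase releases glucose phosphate from it.

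Of the 2 Chd7 probes, the brighter one averaged 5.99 ± 0.02 log2 units in Cre cultures and 7.12 ± 0.32 in control cultures (SD, n = 3 each), a difference of -1.13 (SE 0.16, limma adjusted p = 0.397) with no overlap. The other differed by -0.11 (SE 0.06), and where either lies relative to the floxed part was not given in the sources used here. Between 82.9 and 87.0% of probes lay above the blank spots on Cre arrays, against 87.4 to 90.8% on control arrays. Of 10 astrocyte markers, 9 had a higher mean in Cre cultures, and their summed level in the authors' values was 6469 to 8252 on the Cre arrays, against 4861 to 8655 on control arrays. Of 9 measured microglia and macrophage markers, 6 had a lower mean in Cre cultures, with sums of 267 to 346 on the Cre arrays, against 342 to 371 on control arrays. In the normalised log2 values, 3 astrocyte markers lay wholly higher on Cre arrays, with Aldh1l1 at 0.72 (SE 0.17), and 0 lay wholly lower. Of the microglia markers, 4 lay wholly lower, among them C1qb at -0.71 (SE 0.17) and C1qa at -0.67 (SE 0.11). Only 1 lay wholly higher, Cd68 at 0.48 (SE 0.08). Over all probes, 5.21% lay wholly higher and 5.23% wholly lower. All 10 astrocyte markers were above background on every array, and of the microglia markers only Ptprc was below it on any array. In bulk RNA, fewer cells of a type and less RNA per cell cannot be told apart. The part of these markers in the results on glucose genes was not tested.

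None of the 38 probes passed an adjusted p of 0.05 (limma, smallest adjusted p = 0.713), and 0 of 21456 probes passed in the whole table (0.0%, smallest adjusted p = 0.397). With the replicate number as a block, 0 passed as well. Most glucose genes nonetheless had the higher mean in Cre cultures. This held for 29 of the 36 genes (80.6%), against 49.9% of all 17820 genes. The median log2 difference, Cre minus control, was 0.085 over the 36 genes and -0.0005 over all probes tested. It was 0.11, 0.010 and 0.19 in the pairs of arrays numbered 1, 2 and 3. In the authors' own values only 16 of the 36 genes were higher, with a median of -0.021, as described at the end.

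At an unadjusted p under 0.05 in limma, 5 of the 38 probes were higher in Cre cultures, against a background of 2.75% of all probes, and 0 were lower, against 2.79%. These were the probes of Gapdh, Pkm, Pfkl, Pgam2 and Pdk4. The same 5 probes were those whose 3 Cre arrays all lay above the 3 control arrays, which held for 5.21% of all probes, and 0 of the 38 lay wholly below, against 5.23%. With the block, 7 probes were higher at an unadjusted p under 0.05, against 4.47% of all probes, and 0 were lower, against 4.76%. These were the probes of Gapdh, Pkm, Pfkl, Pdk4, Ldha and Slc16a1 and a second probe named Pdk1, described below. Pgam2 was no longer among them, and by the probe that stands for each gene the count was 6. In the whole table the block moved the count of probes at that limit to 1981, against 1187 without it. The count of 5 depended on processing and on single arrays. It was 1 with median scaling and 0 in the authors' values, which also differ in background correction and offset. Among left-out arrays it was 1 without Cre replicate 3, 8 without control replicate 2 and 8 without both arrays numbered 2. In 9 of the 38 probes the Cre array was the higher one in all 3 same-numbered pairs, against 14.5% of all probes. With 3 arrays a side the smallest exact permutation p is 0.1, so no single gene was tested that way.

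**Figure D1:**
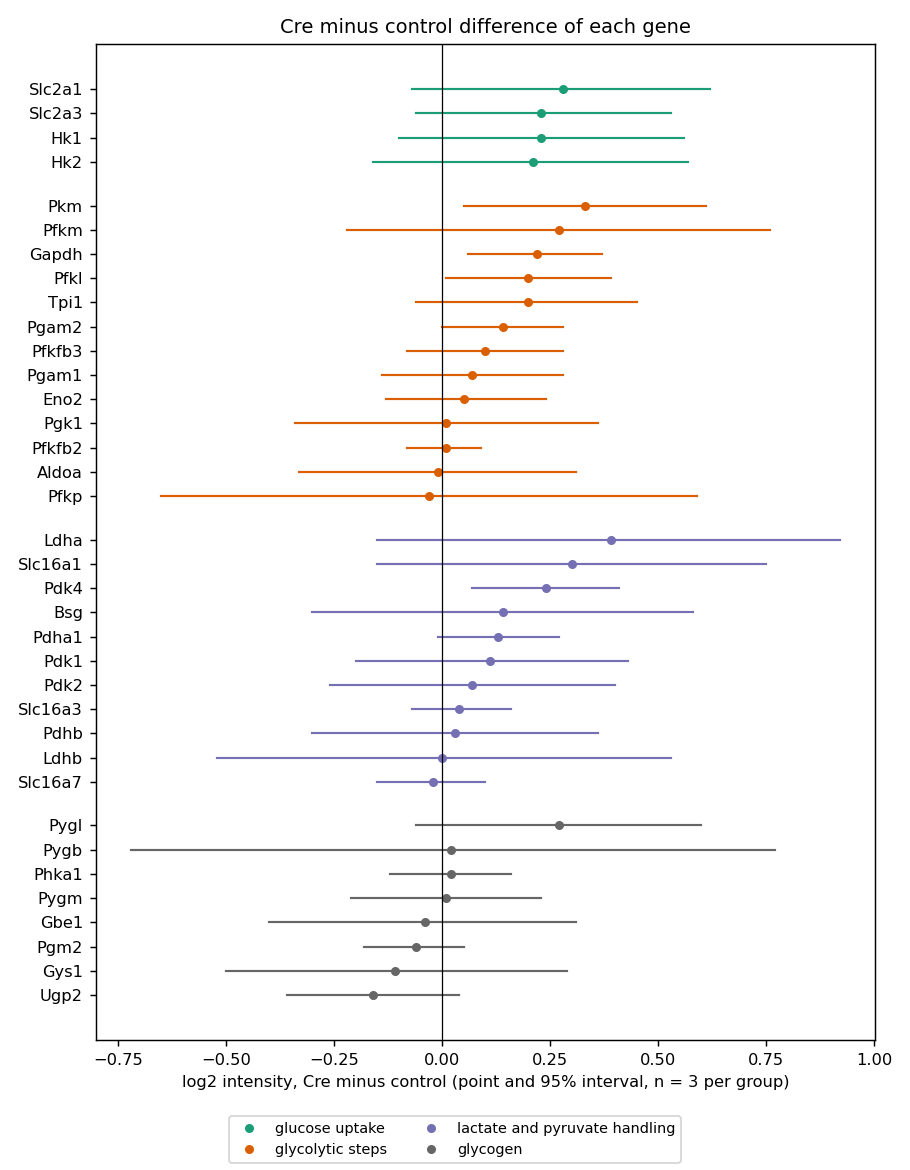
Difference in log2 intensity, Cre minus control, for the 36 genes in 4 role groups. Points are differences, lines are 95% intervals from limma, and n is 3 arrays per group. All 4 uptake genes lie right of 0 with intervals that include 0, though 3 of them turn with the local background column, and the glycogen genes lie on both sides of it.

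All 4 genes of glucose uptake had the higher mean in Cre cultures, with a median difference of 0.23 that turned to -0.111 with the scanner's local background column, and none passed (limma adjusted p between 0.969 and 0.999). Slc2a1, the main glucose transporter of astrocytes and of the blood-brain barrier, read 8.09, 7.90 and 8.10 log2 units on Cre arrays 1 to 3, against 7.56, 8.04 and 7.66 on control arrays. Cre replicates 1 and 3 lay above all controls, while Cre replicate 2 lay below control replicate 2. The difference was 0.28 (SE 0.14, 95% interval -0.07 to 0.62). Slc2a3, a high-affinity transporter best known from neurons, stood at 7.97 ± 0.17 in Cre and 7.73 ± 0.16 in control cultures (SD, n = 3 each). The groups overlapped there too, and the difference was 0.23 (SE 0.12).

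The hexokinases phosphorylate glucose once it is inside. Hk1, the form bound to mitochondria in brain, read 7.20, 6.89 and 7.22 on Cre arrays and 6.69, 7.07 and 6.87 on control arrays, a difference of 0.23 (SE 0.13). The groups overlapped, and as for Slc2a1 the Cre array was the higher one in pairs 1 and 3, by 0.51 and 0.35, and the lower one in pair 2, at -0.18. Hk2, the form induced by growth factors and low oxygen, was even across Cre arrays, at 8.50, 8.45 and 8.48, and spread across control arrays, at 8.57, 8.26 and 7.99. Its difference of 0.21 (SE 0.15) was smaller than the SD of the control group (0.29). Over the 4 genes the median was 0.45 in pair 1, -0.11 in pair 2 and 0.42 in pair 3. In pair 2 only Hk2 was higher on the Cre array.

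Among the genes of the glycolytic steps, 11 of the 13 measured had the higher mean in Cre cultures, with a median of 0.10 that turned to -0.017 in the authors' values. The first committed step is made by phosphofructokinase, whose 3 subunit genes were not alike in their values. Pfkl, the liver-type subunit, read 7.24, 7.15 and 7.33 on Cre arrays and 7.11, 6.91 and 7.10 on control arrays. The groups did not overlap, with a difference of 0.20 (SE 0.08, limma adjusted p = 0.876). Pfkm, the muscle-type subunit, read 9.30, 9.05 and 8.77 on Cre arrays, against 8.60, 9.11 and 8.61 on control arrays, a difference of 0.27 (SE 0.20) with overlap. Pfkp, the platelet-type subunit, read 10.60, 10.99 and 10.91 on Cre arrays and 10.55, 11.38 and 10.65 on control arrays. Control replicate 2 was the highest array for Pfkp, and the difference of -0.03 (SE 0.25, 95% interval -0.65 to 0.59) covered sizable differences in either direction.

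Pfkfb3 and Pfkfb2 encode enzymes that make and break the sugar phosphate that activates phosphofructokinase. Pfkfb3 read 7.98, 8.08 and 8.24 on Cre arrays and 8.02, 8.03 and 7.94 on control arrays, a difference of 0.10 (SE 0.07) with overlap. Both Pfkfb2 probes lay near the floor of the scale, where the offset alone gives 5.64 log2 units. They differed by 0.01 (SE 0.03) and 0.02 (SE 0.03) between the groups.

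In the middle of the pathway, aldolase and triose phosphate isomerase split the sugar and interconvert the products. Aldoa stood at 12.99 ± 0.18 in Cre and 13.00 ± 0.18 in control cultures (SD, n = 3 each), a difference of -0.01 (SE 0.13). Tpi1 read 11.73, 12.08 and 11.87 on Cre arrays and 11.81, 11.65 and 11.63 on control arrays, a difference of 0.20 (SE 0.10) with overlap through Cre replicate 1.

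Gapdh, whose enzyme makes the first NADH of the pathway, had the smallest p of the set. It read 13.41, 13.57 and 13.52 on Cre arrays, against 13.36, 13.30 and 13.20 on control arrays. All Cre arrays lay above all control arrays, by as little as 0.06 in pair 1. The difference was 0.22 (SE 0.06, 95% interval 0.06 to 0.37, limma adjusted p = 0.713), or 1.16-fold, and it turned to -0.555 with the scanner's local background column. In the authors' linear values Gapdh read 6529, 6176 and 6811 on Cre arrays and 6028, 6281 and 6388 on control arrays, where the groups overlapped. Gapdh is widely used as a loading reference.

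The steps that yield ATP and pyruvate were mixed. Pgk1, phosphoglycerate kinase, averaged 13.23 ± 0.16 in Cre and 13.22 ± 0.23 in control cultures (SD, n = 3 each). Pgam1, the mutase form of brain, averaged 13.44 ± 0.16 in Cre and 13.37 ± 0.04 in control cultures (SD, n = 3 each). Both differences, 0.01 (SE 0.14) and 0.07 (SE 0.08), were within the spread of the arrays. Pgam2, the mutase form of muscle, was dim, at 6.55, 6.57 and 6.60 on Cre arrays and 6.47, 6.32 and 6.50 on control arrays. Its groups did not overlap, and the difference was 0.14 (SE 0.06, limma adjusted p = 0.890). The 4 measured skeletal muscle markers lay above background on all arrays at 5.84 to 6.11 log2 units in group means, near the floor, and all 4 had the higher mean in Cre cultures. The part of muscle-type transcripts in the Pgam2 value was not tested. Eno2, the enolase form of neurons, stood at 6.94 ± 0.09 in Cre and 6.89 ± 0.10 in control cultures (SD, n = 3 each).

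Pkm, the pyruvate kinase of brain and most other tissues, had the largest difference of the glycolytic steps. It read 11.05, 10.65 and 10.91 on Cre arrays and 10.61, 10.57 and 10.44 on control arrays. The lowest Cre array lay just above the highest control array. The difference was 0.33 (SE 0.11, 95% interval 0.05 to 0.61, limma adjusted p = 0.813), or 1.26-fold. With the local background column it was -0.735. In the authors' values the groups overlapped, at 1194, 799 and 1097 on Cre arrays and 871, 975 and 893 on control arrays.

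**Figure D2:**
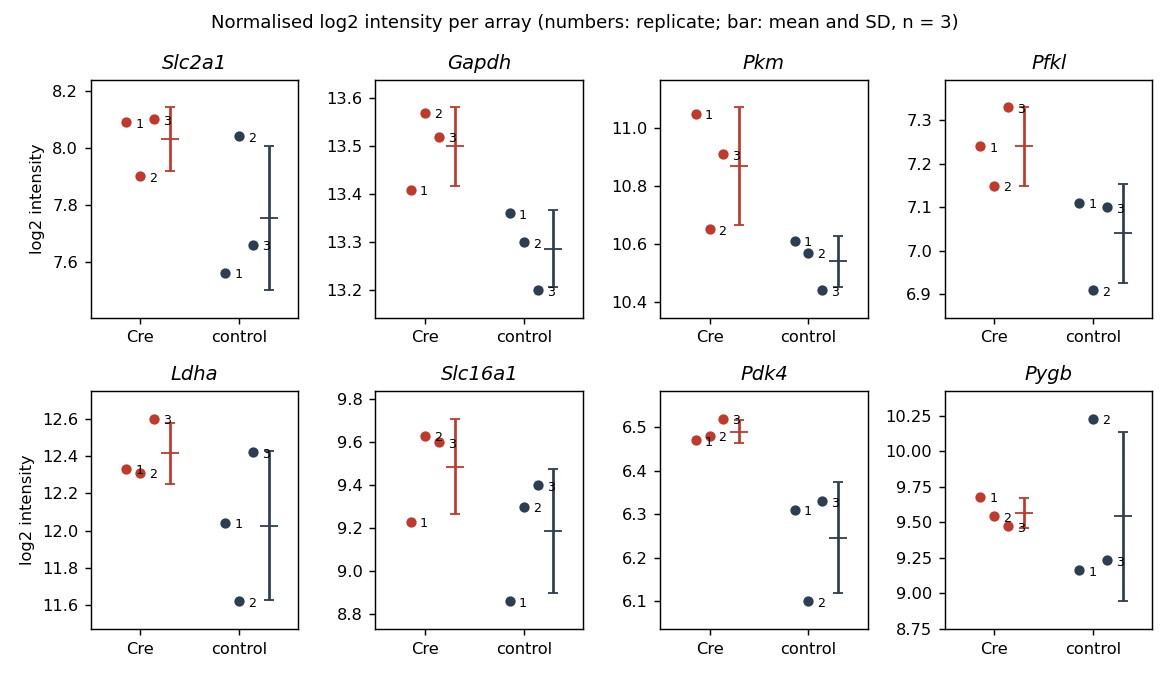
Normalised log2 intensity of 8 genes on every array, Cre left and control right, each panel on its own scale that does not start at 0. Points carry the replicate number, and the bar beside each group is its mean with SD (n = 3). Gapdh, Pkm, Pfkl and Pdk4 show no overlap between groups, and for Pygb control replicate 2 stands above all other arrays at 10.23.

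Of the 11 genes of lactate and pyruvate handling, 10 had the higher mean in Cre cultures, with a median of 0.115 that turned to -0.002 in the authors' values. Ldha encodes the lactate dehydrogenase subunit that favours lactate formation. Its difference was the largest of all 36 genes, at 0.39 (SE 0.21, 95% interval -0.15 to 0.92), or 1.31-fold, and turned to -0.632 with the local background column. It read 12.33, 12.31 and 12.60 on Cre arrays and 12.04, 11.62 and 12.42 on control arrays. The groups overlapped through control replicate 3, yet the Cre array was the higher one in each pair, by 0.29, 0.68 and 0.18. Ldha did not pass without the block (limma adjusted p = 0.999) or with it (adjusted p = 0.493). Ldhb, the subunit that favours lactate use, averaged 13.05 ± 0.12 in Cre and 13.05 ± 0.41 in control cultures (SD, n = 3 each). On control arrays Ldhb read 12.65, 13.47 and 13.02, so that control replicate 2 was the highest array for Ldhb and the lowest for Ldha.

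Among the monocarboxylate transporters, Slc16a1, which carries lactate and pyruvate across the membrane of astrocytes and endothelium, read 9.23, 9.63 and 9.60 on Cre arrays and 8.86, 9.30 and 9.40 on control arrays. The groups overlapped, and Cre was the higher array in every pair, by 0.38, 0.33 and 0.19. The difference was 0.30 (SE 0.18). It did not pass with the block either (limma adjusted p = 0.392). Slc16a3, the low-affinity exporter typical of glycolytic cells, was dim, at 6.46 ± 0.05 in Cre and 6.41 ± 0.06 in control cultures (SD, n = 3 each). Slc16a7, the high-affinity form of neurons, stood at 6.88 ± 0.04 in Cre and 6.91 ± 0.08 in control cultures (SD, n = 3 each). Bsg, the chaperone that brings the products of Slc16a1 and Slc16a3 to the cell surface, read 11.59, 11.05 and 11.47 on Cre arrays and 10.99, 11.39 and 11.33 on control arrays, a difference of 0.14 (SE 0.18).

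The fate of pyruvate is set by the pyruvate dehydrogenase complex and by the kinases that switch it off. Pdk4, the kinase induced by fasting and fatty acids, read 6.47, 6.48 and 6.52 on Cre arrays and 6.31, 6.10 and 6.33 on control arrays. The groups did not overlap, and the difference was 0.24 (SE 0.07, 95% interval 0.07 to 0.41, limma adjusted p = 0.713). Of the 5 such probes, Pdk4 was the only one whose groups did not overlap in the authors' values, at 23, 20 and 24 on Cre arrays and 18, 12 and 19 on control arrays. The share of all probes wholly higher in those values is not given here. The Pdk4 probe is dim, and the offset compresses its fold. Pdk1, the kinase known as a target of the hypoxia factor, differed by 0.11 (SE 0.13) and Pdk2 by 0.07 (SE 0.13). A second probe that the platform names Pdk1, under an Entrez identifier that is not in RefSeq's table, differed by 0.20 (SE 0.10) and was the higher one on Cre arrays in all 3 pairs. The subunit gene Pdha1 averaged 9.97 ± 0.07 in Cre and 9.84 ± 0.07 in control cultures (SD, n = 3 each), a difference of 0.13 (SE 0.06) with overlap through Cre replicate 1. It turned to -0.049 in the authors' values and to -0.231 with the local background column. Its partner Pdhb differed by 0.03 (SE 0.13).

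Of the genes whose groups did not overlap or whose difference was 0.3 or more, 5 have a promoter window shown here. Pfkl and Pgam2 met the same rule but are not shown, nor are the second windows of Ldha and Pkm. Each window runs from 250 bases before to 50 bases after a RefSeq start site, 5′ to 3′ on the gene's strand, in build GRCm38.p6. Capitals mark ACGTG on either strand, a form of the core letters bound by the hypoxia factors, for which many glycolytic genes are known targets. Other forms of the core, such as GCGTG, were not searched, so 0 matches does not mean that the core is absent.
Gapdh promoter (chr6:125165724-125166023, minus strand): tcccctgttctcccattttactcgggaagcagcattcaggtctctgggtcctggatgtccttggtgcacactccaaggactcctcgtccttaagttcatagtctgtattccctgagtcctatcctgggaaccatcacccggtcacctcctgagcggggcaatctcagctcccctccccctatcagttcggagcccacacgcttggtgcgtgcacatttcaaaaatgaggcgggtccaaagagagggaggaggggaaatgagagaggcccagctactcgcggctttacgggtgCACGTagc
Pkm promoter (chr9:59656977-59657276, plus strand): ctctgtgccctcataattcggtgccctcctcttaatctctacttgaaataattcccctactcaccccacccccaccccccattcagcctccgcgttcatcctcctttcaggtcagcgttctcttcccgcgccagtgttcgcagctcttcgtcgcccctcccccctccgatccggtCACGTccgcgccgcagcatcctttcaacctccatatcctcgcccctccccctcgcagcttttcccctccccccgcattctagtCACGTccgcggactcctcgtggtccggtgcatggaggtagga
Ldha promoter (chr7:46845554-46845853, plus strand): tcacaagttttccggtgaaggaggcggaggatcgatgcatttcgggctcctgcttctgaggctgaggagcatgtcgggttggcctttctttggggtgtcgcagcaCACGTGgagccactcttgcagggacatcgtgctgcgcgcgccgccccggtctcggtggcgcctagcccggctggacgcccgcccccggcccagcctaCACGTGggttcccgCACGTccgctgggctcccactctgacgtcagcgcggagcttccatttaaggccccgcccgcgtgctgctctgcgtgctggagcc
Slc16a1 promoter (chr3:104638414-104638713, plus strand): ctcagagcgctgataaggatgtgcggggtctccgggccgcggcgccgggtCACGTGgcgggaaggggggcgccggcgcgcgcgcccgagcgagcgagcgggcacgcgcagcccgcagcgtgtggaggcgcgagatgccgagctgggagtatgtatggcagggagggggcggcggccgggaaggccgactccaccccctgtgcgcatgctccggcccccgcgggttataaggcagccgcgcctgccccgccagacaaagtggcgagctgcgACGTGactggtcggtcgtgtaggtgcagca
Pdk4 promoter (chr6:5496229-5496528, minus strand): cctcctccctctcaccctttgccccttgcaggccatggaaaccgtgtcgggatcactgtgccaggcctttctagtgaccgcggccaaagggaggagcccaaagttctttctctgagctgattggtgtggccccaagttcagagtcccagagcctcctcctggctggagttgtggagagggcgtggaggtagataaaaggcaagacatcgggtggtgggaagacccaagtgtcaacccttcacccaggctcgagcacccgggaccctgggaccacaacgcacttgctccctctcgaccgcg
The Ldha promoter held 5 matches and the Slc16a1 promoter 3. The palindrome CACGTG, the E-box bound by MYC and its relatives, holds ACGTG on both strands and so counts as 2 matches. Ldha had 2 such E-boxes and Slc16a1 had 1. The Pkm promoter held 2 matches and that of Gapdh 1, neither with an E-box, and Pdk4 had 0. Ldha and Pkm each had a second start site whose window held 0 matches, and the windows of Pfkl and Pgam2 also held 0. As these windows are not shown, the sequences above favour windows with a match. Promoters were on file for 35 of the 38 genes, as 51 windows. ACGTG occurred in 25 of these 51 windows (49.0%), against 19.6% of all 32851 windows of 300 bases, and CACGTG in 6 (11.8%), against 7.15%. A match describes letters in the window only.

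Glycogen genes were split: 4 of 8 had the higher and 4 the lower mean in Cre cultures, with a median of -0.015. This median was -0.176 in the authors' values, 0.177 with the local background column and -0.098 without control replicate 3. The 4 with a lower mean were Ugp2, Gys1, Gbe1 and Pgm2, of which the local background column turned 3. Ugp2, which makes the glucose donor UDP-glucose, read 10.74, 10.80 and 10.73 on Cre arrays and 10.80, 11.08 and 10.87 on control arrays. It was the only one of the 38 probes that was lower in Cre in all 3 pairs. The share of all probes lower in all 3 pairs is not given here, while 14.5% were higher in all 3. The difference for Ugp2 was -0.16 (SE 0.08, limma adjusted p = 0.970). In the authors' values Ugp2 read 977, 893 and 964 on Cre arrays and 994, 1359 and 1205 on control arrays, with no overlap. Those values lie lower in Cre cultures as a whole, with medians of -0.074 over all probes and -0.166 over the brightest 25% of genes. The share of all probes wholly lower in them is not given here. With the local background column the difference was 0.063 for Ugp2, 0.329 for Gbe1 and 0.311 for Pgm2.

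Gys1, the glycogen synthase of brain and muscle, read 7.69, 7.72 and 7.61 on Cre arrays and 7.64, 8.14 and 7.55 on control arrays. Its difference of -0.11 (SE 0.16) rested on control replicate 2 and was 0.074 without that array. Gbe1, the branching enzyme, differed by -0.04 (SE 0.14). Pgm2 differed by -0.06 (SE 0.05). It encodes a phosphoglucomutase family member whose human counterpart acts mainly on pentose phosphates.

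On the side of breakdown, the 3 glycogen phosphorylases differed in how steady they were. Pygb, the brain form, had the widest spread of the 36 genes. It read 9.68, 9.54 and 9.47 on Cre arrays and 9.16, 10.23 and 9.23 on control arrays, so that control replicate 2 stood above all others and the other 2 controls below all Cre arrays. Its difference was 0.02 (SE 0.30, 95% interval -0.72 to 0.77). Pygl, the liver form, was dim, at 6.36, 6.28 and 6.52 on Cre arrays and 6.16, 6.32 and 5.86 on control arrays, a difference of 0.27 (SE 0.13) with overlap. Pygm, the muscle form known from astrocytes as well, differed by 0.01 (SE 0.09). Phka1, a regulatory subunit of the kinase that activates phosphorylase, differed by 0.02 (SE 0.06).

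**Figure D3:**
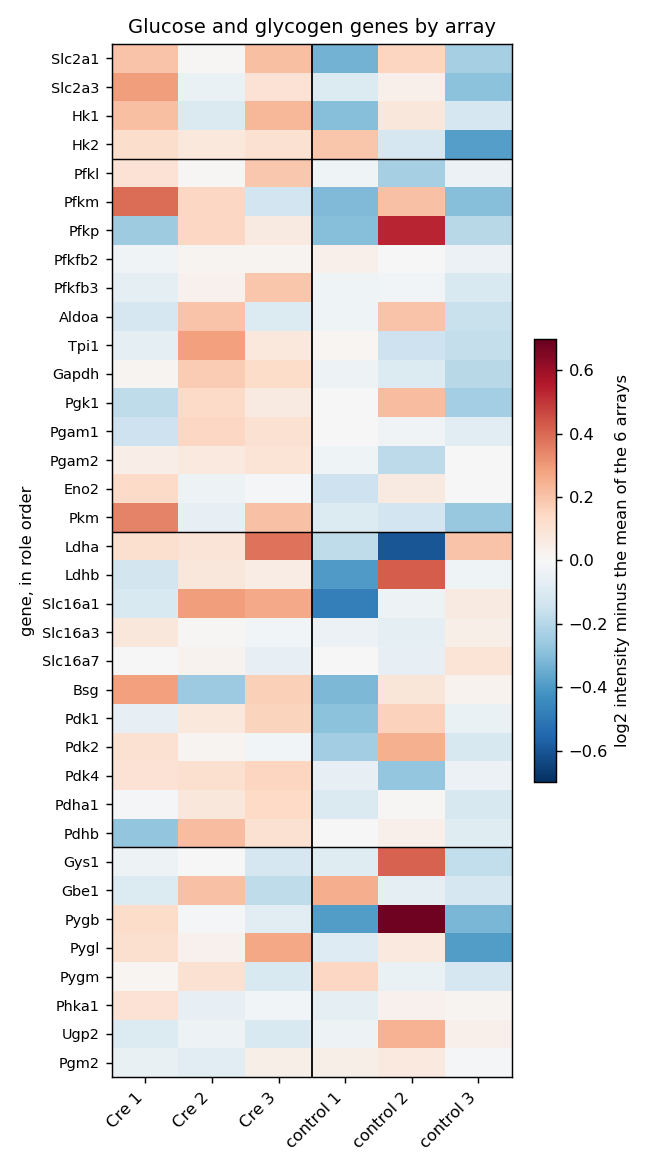
Log2 intensity of the 36 genes on each array, less the gene's mean over the 6 arrays, with Cre arrays left and control arrays right and role groups divided by lines. Red is above and blue below the mean. Control replicate 2 stands out, with Pygb, Pfkp, Ldhb and Gys1 above and Ldha below the other controls.

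For 19 of the 36 genes the difference between groups was smaller than the SD within groups, pooled over both. That SD ran from 0.03 (Pfkfb2) to 0.43 (Pygb), with a median of 0.17. The half-widths of the 95% intervals ran from 0.08 to 0.75 log2 units, with a median of 0.3. These SDs, and every SE and 95% interval given, take no account of the replicate number. Control replicate 2 was the highest of the control arrays for 21 of the 36 genes and the lowest for 6. The same share over all genes is not given here. Of all arrays, control replicate 2 had the most probes above the blank spots, at 90.8%. The arrays numbered 2 were also the lowest of their groups in most of the 7 fibroblast and mural markers. Col1a2, a chain of type I collagen, read 6.94 on Cre replicate 2 and 9.45 and 8.92 on the other Cre arrays. On control replicate 2 it read 7.29, against 9.92 and 8.64 on the other controls. For Acta2 and Pdgfrb, of the same markers, the arrays numbered 2 lay between the others of their group. The part of these markers in the glucose genes was not tested. Without both arrays numbered 2, Pfkp stood at 0.156 and Gys1 at 0.054.

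None of the further genes of these and neighbouring pathways passed an adjusted p of 0.05. Of 20 further glycolysis and glucose genes measured, 16 had the higher mean in Cre cultures, with a median of 0.020, and 0 reached an unadjusted p under 0.05 in limma. Aldoc, the aldolase that marks astrocytes, read 10.96, 12.26 and 11.93 on Cre arrays and 10.70, 11.93 and 11.77 on control arrays. It varied by more than 1 log2 unit among replicates and was higher on the Cre array of each pair, with a difference of 0.25 (SE 0.47). With the block, 2 of the 20, Aldoc and Slc2a6, were higher at that limit, against 4.47% of all probes. Aldoc was named after its values were seen. The smallest p belonged to the transporter gene Slc2a6, at 0.15 (SE 0.11).

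Of 16 further lactate and pyruvate genes, 11 were higher, with a median of 0.036 and 0 at an unadjusted p under 0.05 in limma, with the block or without it. They were led by the transporter gene Slc16a6, at 0.08 (SE 0.04), and by Dlat, a subunit of pyruvate dehydrogenase, at 0.22 (SE 0.18). Of 14 further glycogen genes, 8 were higher and 6 lower, with 0 at that limit. With the block 2 were higher (Ppp1r3c and Phkg1) and 1 lower (Gyg) at that limit, against 4.47% and 4.76% of all probes, and Phkg1 was named after its values were seen. Gsk3b, the kinase that inhibits glycogen synthase, had groups that did not overlap, at 7.94 ± 0.03 in Cre and 8.17 ± 0.18 in control cultures (SD, n = 3 each), a difference of -0.22 (SE 0.09). Gyg, the primer protein of glycogen, stood at -0.23 (SE 0.13) and Ppp1r3c, a targeting subunit that promotes glycogen storage, at 0.29 (SE 0.16). Of 7 genes of the pentose phosphate pathway, which branches off after glucose phosphorylation, 5 were lower, among them Rpe at -0.15 (SE 0.06) and Taldo1 at -0.16 (SE 0.08), while Tkt stood at 0.27 (SE 0.18). None of the 7 reached that limit without the block, and with it 1, Taldo1, was lower.

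Of 15 measured genes that respond to low oxygen but lie outside glycolysis, 8 were higher and 7 lower, with a median of 0.024, and 2 of them (Ddit4 and Car12) were higher at an unadjusted p under 0.05 in limma, against 2.75% of all probes. Car12 was above background on only 4 of the 6 arrays, at 5.80 ± 0.04 in Cre and 5.71 ± 0.01 in control cultures (SD, n = 3 each). With the block the 2 were Ddit4 and Ndrg1. Ddit4, an inhibitor of growth signalling, read 8.89, 8.56 and 8.96 on Cre arrays and 8.14, 8.20 and 8.50 on control arrays, with no overlap and a difference of 0.52 (SE 0.14, limma adjusted p = 0.708). Ndrg1 stood at 0.33 (SE 0.16) and Adm, a vasodilator peptide, at -0.21 (SE 0.12). Among 11 regulators of glycolysis, 5 were higher and 6 lower. Epas1, one of the hypoxia factors, was dim but even, at 6.38, 6.40 and 6.33 on Cre arrays and 6.16, 6.12 and 6.16 on control arrays, a difference of 0.22 (SE 0.03, limma adjusted p = 0.397). Hif1a, the other main hypoxia factor, averaged 7.88 ± 0.03 in Cre and 7.91 ± 0.10 in control cultures (SD, n = 3 each), and was named after its values were seen. Myc stood at -0.14 (SE 0.06).

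The median of the glucose genes kept its sign in every alternative run except the authors' values, which differ from the reported setting in background correction, offset and scaling at once. Scaling every array to 1 median, the only one that changed scaling alone, gave 25 of 36 genes higher and a median of 0.053. In the authors' table, which has 1 divisor per array, 16 of the 36 genes were higher in Cre cultures, with a median of -0.021, while all probes had a median of -0.074. The shift grew with brightness. In the brightest 25% of genes, the authors' values had a median of -0.166 over all 4455 genes and -0.067 over the 18 glucose genes among them. In the remaining genes the medians were -0.060 and 0.004. With quantile normalisation the medians of all genes and of the glucose genes were 0.001 and 0.101 in the brightest 25%, and the glucose genes had 0.085 in the rest. Scaling every array to 1 median gave -0.056 for all bright genes and 0.043 for the 18. In these 3 settings the 18 bright glucose genes lay above all bright genes in median. With the local background column they lay below, with -0.196 for the 18, of which 7 were higher, and -0.124 for all bright genes.

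**Figure D4:**
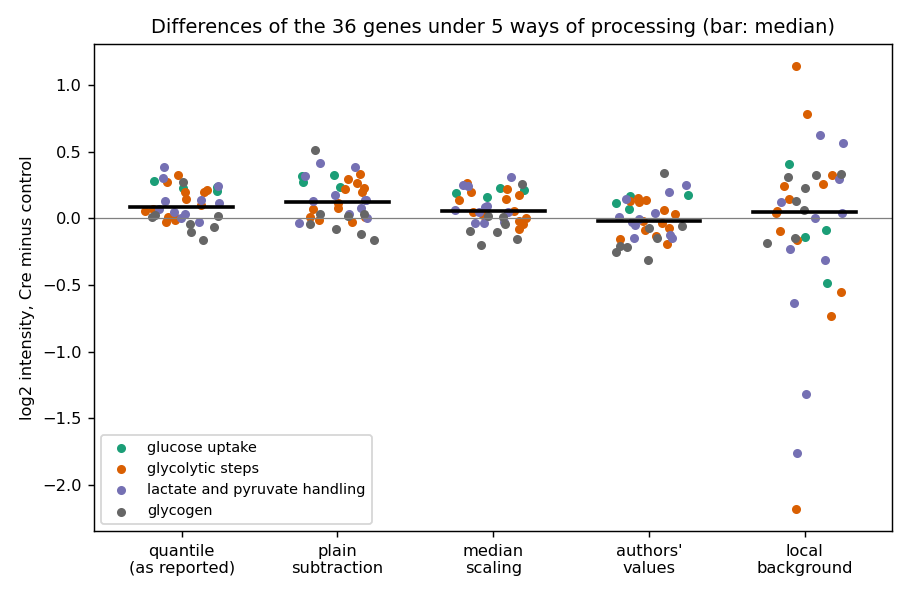
Differences in log2 intensity, Cre minus control, of the 36 genes under 5 ways of processing, with the median as a bar and genes coloured by role. Medians lie above 0 for all but the authors' values, at -0.021, and the local background column spreads the genes most, down to -2.183 for Pgam1.

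Under every way of processing that was run, single arrays left out included, 8 genes kept a higher mean in Cre cultures: Slc2a1, Pfkl, Pfkm, Tpi1, Pgam2, Slc16a1, Pdk4 and Pygl. Of these, Pgam2, Pdk4 and Pygl were dim. The share of all genes that kept their direction over the same runs is not given here, so the count has no background beside it.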

How the data were processed

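Total RNA of 6 samples was measured on 1-colour oligonucleotide microarrays. Spot intensity values were deposited for each array as scanner output, per the file headers. The authors' value table is linear: each array's intensity less its blank level, divided by 1 number per array (1.438 to 1.935), with a median of 25 on every array. The labels and headers do not say how that number was set. From the deposited spot intensities, values were background-corrected against the blank spots (limma 3.58.1 in R 4.3.3, nec, offset 50), taken to log2 and quantile normalised. Probes with an authors' value on 3 or more of the 6 arrays were kept, 21456 of 23473. Names came from the platform annotation: 20690 probes had 1 symbol, 0 several and 2783 none. Groups were compared with limma's moderated test across all probes and Benjamini-Hochberg adjustment. The fit was also run on simulated arrays, which had no shared replicate effect and held changes larger than those of the glucose genes. The brightest kept probe stood for a gene.

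The genes and lists were chosen with earlier results of these data known. All 38 glucose genes were described, with every array's value for those with an unadjusted p under 0.05, a difference of 0.3 or more or no overlap, and up to 4 genes with the smallest p were named from each other list. Labels do not say whether replicates were separate cultures, so p-values measure only the spread between these samples. Precision is limited by the number of arrays. As a check of pairing, r between the deviations of same-numbered arrays from their group means was 0.497, 0.424 and 0.435. On that ground the replicate numbers in the labels were taken to pair the arrays. Other pairs had -0.372 to -0.167, but deviations from group means push these below 0 once same-numbered ones lie above it. Alternatives were the block, background, offset, scaling, filter, probe rule, the authors' values and each array left out. Leaving out both arrays numbered 2, and the counts of genes with a higher mean and of unadjusted calls, were added after seeing the data.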

Additional observations from a re-analysis of the deposited data

How the results depend on the processing

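No glucose gene probe, and no probe of the whole table, passed the adjusted threshold under any alternative run in limma, and the replicate block changed no call other than the unadjusted counts given above. The smallest adjusted p in the table ranged from 0.064, without control replicate 2, to 0.963, without Cre replicate 3. With 1 array left out, the median of the glucose genes ran from 0.071 to 0.168, uptake from 0.187 to 0.332, glycolytic steps from 0.074 to 0.151, lactate and pyruvate from 0.033 to 0.185 and glycogen from -0.098 to 0.032. Genes with a higher mean ran from 24 to 31. Glucose gene probes higher at an unadjusted p under 0.05 in limma ran from 1 to 8. Those higher calls numbered 1 with median scaling, 0 in the authors' values and 8 without both arrays numbered 2. Lower calls were counted only in the reported setting and with the block. In the authors' values the medians were -0.021 for all 36 genes, -0.017 for steps, -0.002 for lactate and pyruvate and -0.176 for glycogen, with 16 genes higher. With the local background column they were -0.111 for uptake, 0.005 for lactate and pyruvate and 0.177 for glycogen. That column's mean was 179 to 322 beside probes, against 57.5 to 63.0 beside blanks. It turned the direction of 18 genes: Gapdh -0.555, Pkm -0.735, Pgam1 -2.183, Pgk1 -0.093, Pfkp 0.241, Hk1 -0.137, Hk2 -0.486, Slc2a3 -0.085, Ldha -0.632, Ldhb -1.761, Bsg -1.321, Slc16a7 0.566, Pdha1 -0.231, Pdhb -0.311, Phka1 -0.146, Ugp2 0.063, Gbe1 0.329 and Pgm2 0.311. The authors' values turned Slc16a3 (-0.002), Pfkfb2 (-0.071), Pfkfb3 (-0.038), Bsg (-0.026), Pygb (-0.144), Phka1 (-0.058), Pygm (-0.073), Pdha1 (-0.049), Pdhb (-0.15), Ldhb (-0.146), Eno2 (-0.017), Pgk1 (-0.132) and Pgam1 (-0.086). Median scaling turned Pygb (-0.039), Ldhb (-0.033), Pdhb (-0.038) and Pgk1 (-0.019), and leaving out both arrays numbered 2 turned Pfkfb2 (-0.003), Pygm (-0.056), Pdhb (-0.045), Gys1 (0.054) and Pfkp (0.156). Single arrays turned 15 genes, whose differences ran from -0.034 to 0.202 for Pdk2, -0.013 to 0.023 for Pfkfb2, -0.164 to 0.368 for Pygb, -0.028 to 0.053 for Phka1, -0.044 to 0.088 for Pygm, -0.107 to 0.084 for Aldoa, -0.219 to 0.074 for Gys1, -0.185 to 0.212 for Ldhb, -0.002 to 0.098 for Eno2, -0.001 to 0.22 for Pdk1, -0.16 to 0.07 for Gbe1, -0.057 to 0.018 for Slc16a7, -0.069 to 0.174 for Pdhb, -0.107 to 0.125 for Pgk1 and -0.183 to 0.237 for Pfkp. The cause of these turns was not tested. Unadjusted calls over all probes, in both directions together, numbered 1187 in the reported setting, 1981 with the block, 2089 in the authors' values and 627 with median scaling. With 1 array left out they ran from 898, without Cre replicate 1, to 1443, without control replicate 2. With 3 arrays per group, the 95% intervals bound sizes only loosely, and dim probes are compressed toward 0 by the offset.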
